A study of Caenorhabditis elegans with 51 samples.

Results

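Small heat shock proteins are chaperones that bind unfolding proteins without using ATP and hold them in a form that other chaperones can refold. In *C. elegans* the *hsp-16* genes are close to silent in unstressed worms and are switched on by heat through the heat shock factor HSF-1, while other family members are made in muscle, in the germline or under control of the FOXO transcription factor DAF-16. Of 10 genes of this family chosen by name, 8 had a row in the main tables and are described here across 51 RNA sequencing libraries. The tables hold 14033 genes in the first experiment and 14596 in the second. The genes were chosen by symbol and not by a cut on their values, but with earlier results of these data known. *hsp-16.1* and *hsp-16.48* had no row in these tables and were found only in an earlier count table of the second experiment.

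The study asked which genes the long-lived mitochondrial mutants share with one another and with the insulin receptor mutant *daf-2*. RNA was taken from whole, pre-fertile young adult worms grown at 20 °C on OP50 bacteria. The first experiment held 6 libraries each of *clk-1(qm30)*, which affects ubiquinone synthesis, *isp-1(qm150)*, which affects complex III, *nuo-6(qm200)*, which affects complex I, and *daf-2(e1370)*, 3 libraries each of *sod-1*, *ctl-1* and *prdx-2* mutants, which carry mutations in antioxidant genes, and 6 libraries of wild-type N2 worms. The second held 6 libraries of *sod-2(ok1030)* mutants, which lack the primary mitochondrial superoxide dismutase, and 6 libraries of wild-type worms. The alleles of *sod-1*, *ctl-1* and *prdx-2* were not given in the sources used here. Each mutation was present in the whole animal, each strain was 1 line, and the RNA came from many tissues together. In such samples fewer cells of a type and less RNA per cell cannot be told apart.

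Libraries of the first experiment held 21434437 to 28805205 reads and those of the second 22586580 to 33412986. Values are normalized CPM, a measure of reads scaled to the size of each library so that libraries can be compared, and 1 read was worth between 0.0297 and 0.0580. The targeted gene was lower than in wild-type libraries in *clk-1*, *sod-1*, *prdx-2* and *sod-2* mutants. It was higher in *nuo-6* (log2 fold change 0.52, limma adjusted p = 0.0030) and *daf-2* mutants (0.82, limma adjusted p = 8.4e-05) and did not pass in *isp-1* mutants (0.27, limma adjusted p = 0.056), so the RNA level gives these 3 labels no check. In the libraries labelled *ctl-1*, *ctl-1* itself averaged 2.38 ± 0.54 (SD, n = 3), against 2.29 ± 0.41 in wild-type libraries (SD, n = 6), so this label has no check either. The 6 wild-type libraries of the first experiment each correlated best with a different wild-type library of the second, and the match was mutual for 6 of 6. Over 7106 genes the correlation of the deviations from the group mean was 0.76 to 0.95 with the match and at most 0.59 with the next. The 2 wild-type sets may therefore not be separate worm samples, and the *sod-2* comparison is not independent of the others. The source of the match was not tested.

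The genes differ widely in their level. Per kilobase of exon, the median wild-type level of the first experiment was 868 normalized CPM for *sip-1*, which is made in oocytes and embryos. It was 133 for *hsp-25* and 48.8 for *hsp-43*, both known from structures that anchor the muscle, and 118 for *hsp-12.2*. It was 36.4 for *hsp-16.2* and 28.6 for *hsp-16.41*, which lie head to head on chromosome V (WBcel235, chrV:1804334-1804957 on the minus strand and chrV:1805178-1805875 on the plus strand) with 220 bases between them. It was 1.97 for *hsp-12.3* and 0.322 for *hsp-12.6*, 2 short family members that lie in a row on the minus strand of chromosome IV (chrIV:9444791-9445507 and chrIV:9446229-9447228), 721 bases apart. *sip-1* and *hsp-12.2* are on chromosome III (chrIII:10506106-10506801, minus strand, and chrIII:8138077-8139631, plus strand) and *hsp-25* and *hsp-43* on the X (chrX:6034463-6039644 and chrX:6233151-6235543, both minus strand). *sip-1* overlaps an annotated noncoding gene on the opposite strand by 123 bases and *hsp-25* overlaps *ipp-5* on the opposite strand by 53 bases, where reads could have been assigned to either gene if strand was not used in counting.

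The heat-inducible pair *hsp-16.2* and *hsp-16.41* was the most variable part of the family. Between libraries of 1 strain *hsp-16.2* differed by 22-fold in *isp-1* up to 2445-fold in *daf-2* among the groups of 6 libraries. Among the groups of 3 it differed by 99.3-fold in *prdx-2* mutants, by 3.72-fold in the libraries labelled *ctl-1* and by 2.21-fold in *sod-1* mutants. In *clk-1* mutants the values of *hsp-16.2* were 45.9, 689, 51.6, 7.74, 9.34 and 15.2 normalized CPM (replicates 1 to 6). It stood at 19.9, 188, 36.1, 16.46, 28.8 and 8.53 in *isp-1* mutants, and at 686, 83.5, 909, 214, 111 and 17.4 in *nuo-6* mutants. In all 3 mitochondrial mutants the libraries thus ranged from below 20 normalized CPM to over 100. In *daf-2* mutants *hsp-16.2* stood at 8.49, 3.98, 20.7, 993, 0.406 and 347. The wild-type libraries 7 to 12 had 5.10, 3.81, 397, 9.32, 32.8 and 298. Every one of these 4 mutants overlapped the wild type, which itself held 2 libraries near 300 to 400 and 4 libraries below 33.

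**Figure D1:**
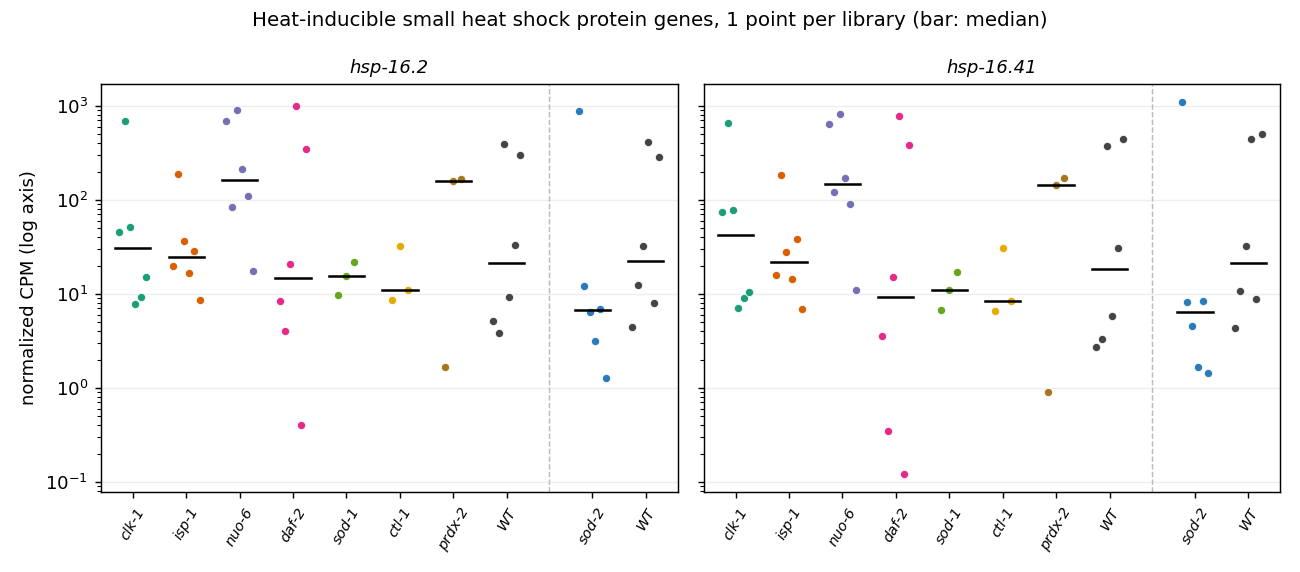
*hsp-16.2* (left) and *hsp-16.41* (right) in normalized CPM on a log axis, 1 point per library, with a bar at the median. The first experiment is left of the dashed line and the second right of it. The spread within a strain is widest in *daf-2* mutants, from 0.406 to 993 for *hsp-16.2*, and narrow in *sod-1* mutants, from 9.83 to 21.8, and all mutants overlap the wild type.

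*hsp-16.41* followed *hsp-16.2* library by library. Its levels in *daf-2* mutants were 3.60, 0.346, 15.1, 777, 0.122 and 384. Those in wild-type libraries 7 to 12 were 2.70, 3.34, 373, 5.87, 30.8 and 440, so that the same 2 libraries were the high ones. On the log2 scale the pair had a Pearson correlation of 0.984 to 0.995 within each of the 7 groups of 6 libraries, and Spearman's rho was 0.886 to 1.0. All 7 Pearson correlations passed an exact permutation test adjusted over 42 relations (adjusted p between 0.0130 and 0.0179), and 2 of 7 did by rho. Without the 2 libraries farthest from the median r was still 0.843 to 0.993.

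Among 14033 genes ranked by their spread within strains, *hsp-16.41* had rank 1 with an SD of 2.85 on the log2 scale, and *hsp-16.2* had rank 3 with 2.57. The median gene had an SD of 0.30. Ranks 2, 4 and 5 were held by *hsp-70* (2.69), F44E5.5 (2.25) and F44E5.4 (2.19), which encode heat-inducible HSP70 chaperones. F44E5.4 and F44E5.5 are near-identical copies, so that reads may be split between them. The 5 most variable genes of the table were thus all heat shock chaperone genes. *hsp-12.6* ranked 163 (1.14) and *hsp-12.3* 659 (0.80), while *hsp-12.2* had an SD of 0.23, below the median gene.

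The inducible *hsp-70* moved with *hsp-16.2* in most groups. The library highest in *hsp-16.2* was also the highest in *hsp-70* in *nuo-6*, *daf-2*, *clk-1*, *sod-1*, *isp-1* and *sod-2* mutants, in the libraries labelled *ctl-1* and in both wild-type sets, but not in *prdx-2* mutants. For example, *daf-2* replicate 4 had 4265 normalized CPM of *hsp-70* and *nuo-6* replicate 3 had 3585, against 1075 in wild-type replicate 9. Within groups the Pearson correlation was 0.556 to 0.998, with 5 of 7 passing the exact permutation test after adjustment, and rho was 0.37 to 1.0, with 2 of 7 passing. In *clk-1*, *isp-1* and *sod-2* mutants the relation rested on 2 libraries, since r was -0.06, -0.34 and 0.38 without the 2 farthest from the median.

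The *hsp-16* pair had a like spread in the second set of wild-type libraries, which may not be separate worm samples. Matched libraries had 397 and 413, 298 and 286, 32.8 and 32.2, 9.32 and 12.31, 5.10 and 7.96, and 3.81 and 4.49 normalized CPM of *hsp-16.2* in the first and second experiment. The ratio of the first to the second was 0.640 to 1.04 for *hsp-16.2* and 0.309 to 0.963 for *hsp-16.41*. The ratio stayed within 1.03 to 1.11 for *hsp-12.2* and 1.11 to 1.55 for *sip-1*. Differences of about 100-fold between wild-type libraries were thus present in both sequencing sets. The *hsp-16* pair was among the genes used to choose the matches, so the likeness is not an independent repeat. For *hsp-12.6*, with 1 to 14 reads per library in the first set, the ratio ranged from 0.223 to 1.54.

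**Figure D2:**
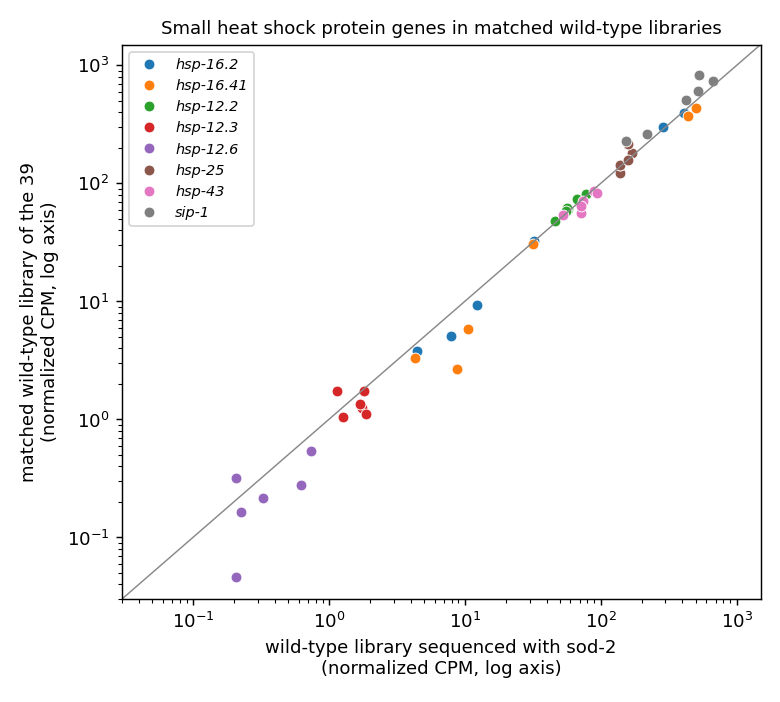
Normalized CPM of the 8 genes in each wild-type library of the first experiment (y, log axis) against its best-correlated wild-type library of the second (x, log axis), with the line of equality. *hsp-16.2* and *hsp-16.41* cover about 2 orders of magnitude along the line, and *hsp-12.6* at the lower left scatters most.

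No comparison called a change in *hsp-16.2* or *hsp-16.41*. In *nuo-6* mutants, where 4 of 6 libraries exceeded 100 normalized CPM of *hsp-16.2*, the log2 fold change was 2.43 (SE 1.41, adjusted p = 0.18) and that of *hsp-16.41* 2.47 (SE 1.56, adjusted p = 0.22), both by limma against the wild type. In *daf-2* mutants the values were -0.30 (SE 1.41, adjusted p = 0.89) and -0.89 (SE 1.56, adjusted p = 0.69). The intervals of these differences span several log2 units, so a change of many-fold was not detectable with this spread.

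In *sod-2* mutants a single library carried nearly all *hsp-16* RNA. *hsp-16.2* stood at 888 in replicate 1 and at 12.14, 6.45, 3.15, 6.94 and 1.27 in replicates 2 to 6, against 4.49, 12.31, 32.2, 413, 7.96 and 286 in the wild-type libraries sequenced with them. The log2 fold change was -1.52 (SE 1.49, limma adjusted p = 0.58), and without *sod-2* replicate 1 it was -2.75, again not called. The groups overlapped, with 1 *sod-2* library above and 2 below every wild-type library.

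The earlier count table, whose processing is not described in the sources used here, holds *hsp-16.1* and *hsp-16.48* for the same 12 libraries, together with their copies *hsp-16.11* and *hsp-16.49*. The copies are nearly identical, so that the counting could have split or dropped their reads, and their values are uncertain. *hsp-16.48* had 2290 CPM of the library total in *sod-2* replicate 1 and 6.79 to 45.3 in the other 5, against 26.5 to 1154 in wild-type libraries. *hsp-16.1* had 165 in *sod-2* replicate 1 and 0.402 to 3.43 in the other 5, against 2.10 to 93.3 in wild-type libraries. The same library was highest as for *hsp-16.2*.

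Of the 8 genes, *hsp-12.3* had the broadest increase in the 4 long-lived mutants of the first experiment. It had 2.63, 3.42, 6.38, 4.08, 3.31 and 2.47 normalized CPM in *clk-1* mutants, 11.9, 38.9, 6.31, 5.18, 9.75 and 7.35 in *isp-1* mutants, and 2.80, 16.09, 2.67, 5.09, 4.21 and 4.86 in *nuo-6* mutants. The *daf-2* libraries had 1.69, 3.72, 1.71, 3.25, 7.92 and 18.0, and the wild-type libraries had 1.74, 1.75, 1.04, 1.26, 1.36 and 1.12. Every library of the 3 mitochondrial mutants was above every wild-type library, and 4 of 6 *daf-2* libraries were.

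By limma *hsp-12.3* rose in *isp-1* mutants with a log2 fold change of 2.53 (SE 0.44, adjusted p = 6.1e-05), in *nuo-6* mutants with 1.54 (SE 0.44, adjusted p = 0.0061) and in *daf-2* mutants with 1.36 (SE 0.44, adjusted p = 0.016). The call in *daf-2* mutants was lost without *daf-2* replicate 6 (0.97, adjusted p = 0.069). In *clk-1* mutants the value was 1.12 (SE 0.44, adjusted p = 0.12), which did not pass. It passed when the fit held no strain besides *clk-1* and the wild type (adjusted p = 0.0030). The added 0.5 understates the change of low genes, and edgeR on the recovered reads gave log2 fold changes of 3.26 in *isp-1*, 2.11 in *nuo-6* and 2.13 in *daf-2* mutants.

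*hsp-12.6*, a known target of DAF-16, was close to absent in wild-type worms, with 1 to 14 reads per library. It stood at 0.477, 3.198, 0.543, 7.95, 2.19 and 34.2 normalized CPM in *daf-2* mutants, at 1.98, 10.4, 2.67, 1.55, 0.526 and 0.504 in *nuo-6* mutants, and at 0.548, 5.33, 0.809, 0.682, 0.340 and 2.46 in *isp-1* mutants. The *clk-1* libraries had 0.247 to 0.693 and the wild-type libraries had 0.166, 0.278, 0.217, 0.0466, 0.321 and 0.539. In *daf-2* mutants 5 of 6 libraries, in *isp-1* mutants 5 of 6 and in *nuo-6* mutants 4 of 6 exceeded every wild-type library.

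*hsp-12.6* rose in *daf-2* mutants (log2 fold change 2.34, SE 0.63, limma adjusted p = 0.0038) and in *nuo-6* mutants (1.67, SE 0.63, limma adjusted p = 0.035). In *isp-1* mutants the value of 1.18 (SE 0.63) had an adjusted p of 0.19 by limma, and 0.043 in the fit of *isp-1* and wild-type libraries alone. The *nuo-6* call was lost without any one of wild-type replicates 7, 9 and 10 or *nuo-6* replicates 1, 2 and 3 (1.23 to 1.66, adjusted p = 0.051 to 0.12). By edgeR the log2 fold changes were 4.90 in *daf-2* mutants and 3.46 in *nuo-6* mutants.

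**Figure D3:**
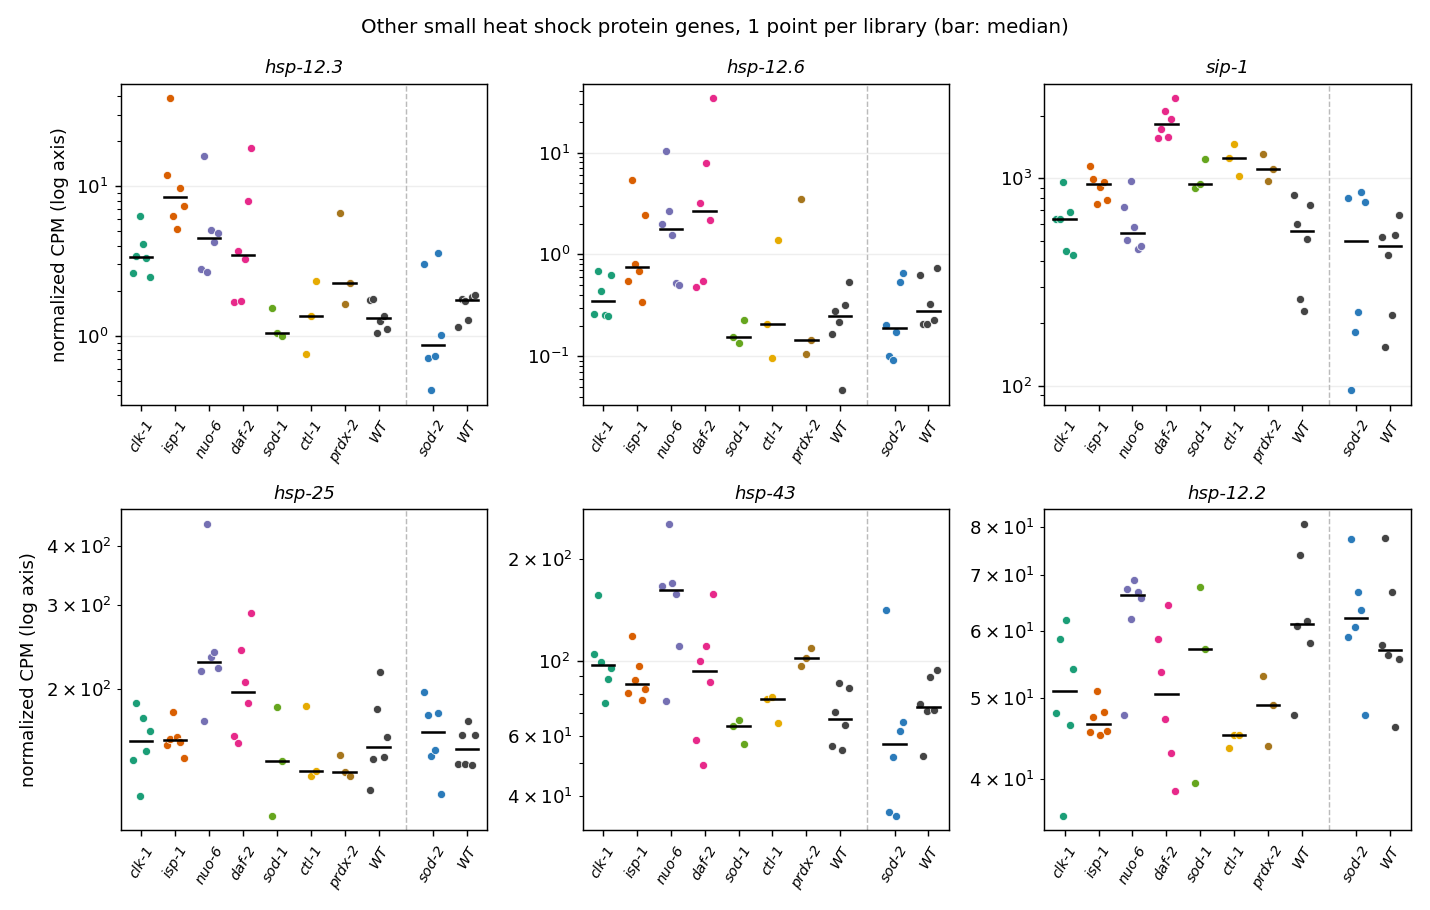
The other 6 genes in normalized CPM on log axes with a different range in each panel, 1 point per library, with a bar at the median and a dashed line between the experiments. All *clk-1*, *isp-1* and *nuo-6* libraries lie above the wild type for *hsp-12.3*, all *daf-2* libraries do for *sip-1*, and *hsp-12.6* ranges from 0.477 to 34.2 within *daf-2* mutants.

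*sip-1*, the most abundant of the 8 genes by group mean, rose in more strains than any other of them. It stood at 1567, 1736, 2113, 1586, 1932 and 2432 normalized CPM in *daf-2* mutants and at 1142, 992, 752, 907, 959 and 782 in *isp-1* mutants. The 3 libraries each had 898, 935 and 1240 in *sod-1* mutants, 1256, 1464 and 1023 in those labelled *ctl-1*, and 1310, 973 and 1111 in *prdx-2* mutants. The wild-type libraries had 826, 603, 262, 230, 508 and 742. All libraries of *daf-2*, *sod-1* and *prdx-2* mutants and those labelled *ctl-1* were above every wild-type library, and 4 of 6 *isp-1* libraries were.

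The log2 fold change of *sip-1* was 1.98 in *daf-2* mutants (SE 0.24, adjusted p = 5.3e-08) and 0.95 in *isp-1* mutants (SE 0.24, adjusted p = 0.0044) by limma. It was 1.10 in *sod-1* mutants (SE 0.29, adjusted p = 0.034), 1.38 in the libraries labelled *ctl-1* (SE 0.29, adjusted p = 0.0049) and 1.24 in *prdx-2* mutants (SE 0.29, adjusted p = 0.0041). With the mutant and wild-type libraries fitted alone, the calls in the 3 strains with 3 libraries were lost (adjusted p = 0.33, 0.10 and 0.074). The *sod-1* call was also lost by edgeR (0.96, adjusted p = 0.074) and without wild-type replicate 9 or 10 or *sod-1* replicate 2 or 3 (0.89 to 1.15), and the *ctl-1* call without *ctl-1* replicate 2 (1.26, adjusted p = 0.061). In *sod-2* mutants *sip-1* stood at 804, 95.1, 181, 228, 858 and 767, against 518, 154, 428, 219, 533 and 668 in wild-type libraries, and the difference was not called (log2 fold change -0.06, SE 0.57, limma adjusted p = 0.96).

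*sip-1* is expressed in oocytes, and it moved with oocyte markers in the wild type. The summed level of 14 oocyte and eggshell markers, none of them at 0 in any library, correlated with *sip-1* in the 6 wild-type libraries of the first experiment (Pearson r = 0.99 and Spearman rho = 0.94, exact permutation adjusted p = 0.013 and 0.064 over 42 relations, r = 0.85 without the 2 farthest libraries). Over the 7 groups r was 0.39 to 0.99, with 2 of 7 passing after adjustment, and without the 2 farthest libraries it was -0.10 to 0.94. The marker sum was 6699 to 9872 in *sod-1* mutants, 5247 to 9047 in the libraries labelled *ctl-1* and 5289 to 9453 in *prdx-2* mutants, against 2881 to 7674 in wild-type libraries. It was 3651 to 7393 in *isp-1* mutants. Of the 14 markers, 14 had a positive log2 fold change in *sod-1* mutants (median 0.65) and 14 in the libraries labelled *ctl-1* (0.51). The number was 13 in *prdx-2* mutants (0.46) and 12 in *isp-1* mutants (0.14), and 0 were called in these comparisons. In *daf-2* mutants, where *sip-1* was highest, the sum was 2080 to 6588, and 2 of the 14 markers, *rme-2* and *cbd-1*, were called lower, beside 16.3% of all genes. All 14 had a negative log2 fold change there (median -0.54). The summed level of 6 yolk protein genes, which feed the oocytes, was 3821 to 52539 in *daf-2* mutants, 5481 to 15835 in the libraries labelled *ctl-1* and 8737 to 29299 in *prdx-2* mutants, against 24959 to 44581 in wild-type libraries. Of the 6, 4 were called lower in *daf-2*, 4 in the libraries labelled *ctl-1* and 3 in *prdx-2* mutants. In *sod-1* and *isp-1* mutants the yolk sum was 23726 to 36552 and 23098 to 65621. The part of these markers in the change of *sip-1* was not tested.

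A ratio of *sip-1* to the oocyte marker sum, chosen after the data were seen, was compared by a two-sided exact permutation test on the log2 scale. Its p was adjusted over the 8 comparisons. The ratio assumes that *sip-1* scales with the markers. In *daf-2* mutants *sip-1* and the markers had a Pearson r of 0.39 and a rho of 0.26. The ratio thus describes the values and cannot separate the number of oocytes from RNA per cell. Per 1000 normalized CPM of markers, *sip-1* was 293 to 1016 in *daf-2* mutants, 123 to 206 in *isp-1* mutants, 162 to 195 in the libraries labelled *ctl-1* and 139 to 201 in *prdx-2* mutants, against 79.7 to 116 in wild-type libraries. These 4 did not overlap the wild type (exact adjusted p = 0.0087 for *daf-2* and *isp-1*, 0.019 for *ctl-1* and *prdx-2*). The log2 difference was 2.49, 0.84, 0.91 and 0.87 in the same order. In *sod-1* mutants the ratio was 113 to 140 and overlapped the wild type (log2 difference 0.42, exact adjusted p = 0.041). It was 105 to 153 in *clk-1* mutants (0.40, exact adjusted p = 0.029) and 109 to 237 in *nuo-6* mutants (0.64, exact adjusted p = 0.019), both overlapping the wild type. *sip-1* itself was not called in *clk-1* (log2 fold change 0.36, limma adjusted p = 0.41) or *nuo-6* mutants (0.33, limma adjusted p = 0.29). The marker sum was 2915 to 6889 in *clk-1* and 2129 to 6598 in *nuo-6* mutants. In *nuo-6* mutants 12 of the 14 markers had a negative log2 fold change and 2 a positive one (median -0.51). In *sod-2* mutants the ratio was 71.7 to 289, against 61.5 to 107 in the wild type sequenced with them (0.60, exact adjusted p = 0.061). The smallest raw p of this test is 0.0022 for 6 against 6 libraries and 0.012 for 3 against 6.

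**Figure D4:**
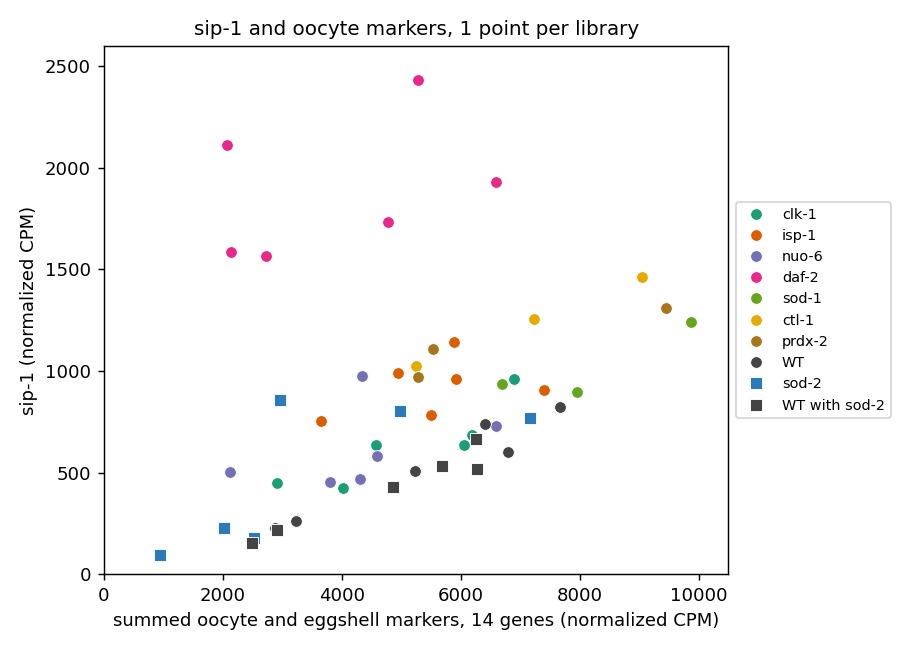
*sip-1* (y) against the summed level of 14 oocyte and eggshell markers (x), both in normalized CPM, 1 point per library, with squares for the second experiment. Wild-type libraries lie along a line from the lower left, and the 6 *daf-2* libraries lie between 1567 and 2432 at marker sums of 2080 to 6588, above all others.

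*hsp-43* and *hsp-25*, which are known from body wall muscle attachments, rose only in *nuo-6* mutants among the comparisons with the wild type in the joint fit. *hsp-43* had 166, 76.1, 253, 170, 158 and 110 normalized CPM in *nuo-6* mutants, against 56.2, 70.6, 85.9, 54.5, 64.6 and 83.1 in wild-type libraries. Replicate 2 was the 1 of 6 *nuo-6* libraries within the wild-type range. The log2 fold change was 1.09 (SE 0.22, limma adjusted p = 2.1e-04). *hsp-25* had 218, 171, 445, 233, 239 and 221 in *nuo-6* mutants, against 123, 142, 181, 217, 144 and 158 in wild-type libraries, with the same replicate 2 within the wild-type range. Its log2 fold change was 0.62 (SE 0.17, limma adjusted p = 0.0045).

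In the other strains *hsp-43* gave limma values of 0.56 in *clk-1* mutants (adjusted p = 0.12, 5 of 6 libraries above the wild type) and 0.58 in *prdx-2* mutants (adjusted p = 0.16, 3 of 3 above). Fitted alone with the wild type, *hsp-43* passed in *clk-1* (adjusted p = 0.049), *isp-1* (0.39, adjusted p = 0.044) and *prdx-2* mutants (adjusted p = 0.039). Within groups *hsp-43* and *hsp-16.2* had a Pearson r of 0.48 to 0.97, positive in 7 of 7, of which 1 passed the exact permutation test after adjustment, and a rho of 0.26 to 0.94, of which 0 passed. Without the 2 farthest libraries r was -0.77 to 0.91, so that in most groups the relation rested on those libraries. The summed level of 11 muscle markers, none at 0, was 17957 to 30613 in *nuo-6* mutants, against 15808 to 28242 in wild-type libraries, and 2 of the 11 (*lev-11* and *tnt-2*) were called higher, beside 22.5% of all genes. Their part in the change of *hsp-25* and *hsp-43* was not tested.

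*hsp-12.2*, which encodes a short family member made without stress, was steady within strains and was the 1 member that fell. It had 45.5, 47.3, 50.9, 45.1, 48.0 and 45.6 normalized CPM in *isp-1* mutants, against 47.6, 60.9, 74.0, 80.6, 61.7 and 58.1 in wild-type libraries, and 4 of 6 *isp-1* libraries were below the whole wild-type range. The log2 fold change was -0.42 (SE 0.13, limma adjusted p = 0.024). The call was lost without wild-type replicate 9 (-0.37, adjusted p = 0.067) or 10 (-0.34, adjusted p = 0.069). In the libraries labelled *ctl-1*, where 3 of 3 were below the wild type at 43.5 to 45.2, the value was -0.49 (SE 0.16, limma adjusted p = 0.11).

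Counted over the family, *nuo-6* mutants had 4 of 8 members higher (22.5% of all genes were called higher) and 0 of 8 lower (14% of all genes). *daf-2* mutants had 3 of 8 higher (17.4%) and 0 lower (16.3%), and *isp-1* mutants had 2 of 8 higher (11%) and 1 lower (10.3%). The *clk-1* comparison called 0 of 8 in either direction (6.0% higher and 2.27% lower over all genes) by limma and by edgeR, with 3 of 8 at an unadjusted p under 0.05. *sip-1* was the 1 of 8 higher in *sod-1* (0.606%), in the libraries labelled *ctl-1* (1.05%) and in *prdx-2* mutants (6.51%), and 0 were lower (1.96%, 1.57% and 6.51%). The *sod-2* comparison called 0 of 8 (2.34% higher and 0.692% lower) by limma and by edgeR, with 0 of 8 at an unadjusted p under 0.05.

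Whether these shares of 8 members differ from the shares over all genes was not tested. The median log2 fold change of the 8 members was 1.31 in *nuo-6* mutants, 0.35 in *daf-2*, 0.19 in *isp-1*, 0.32 in *clk-1*, 0.44 in *prdx-2*, -0.16 in *sod-1*, -0.04 in the libraries labelled *ctl-1* and -0.21 in *sod-2* mutants. The median over all genes lay between -0.02 and 0.02 in these comparisons. The comparisons of the first experiment share their wild-type libraries.

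**Figure D5:**
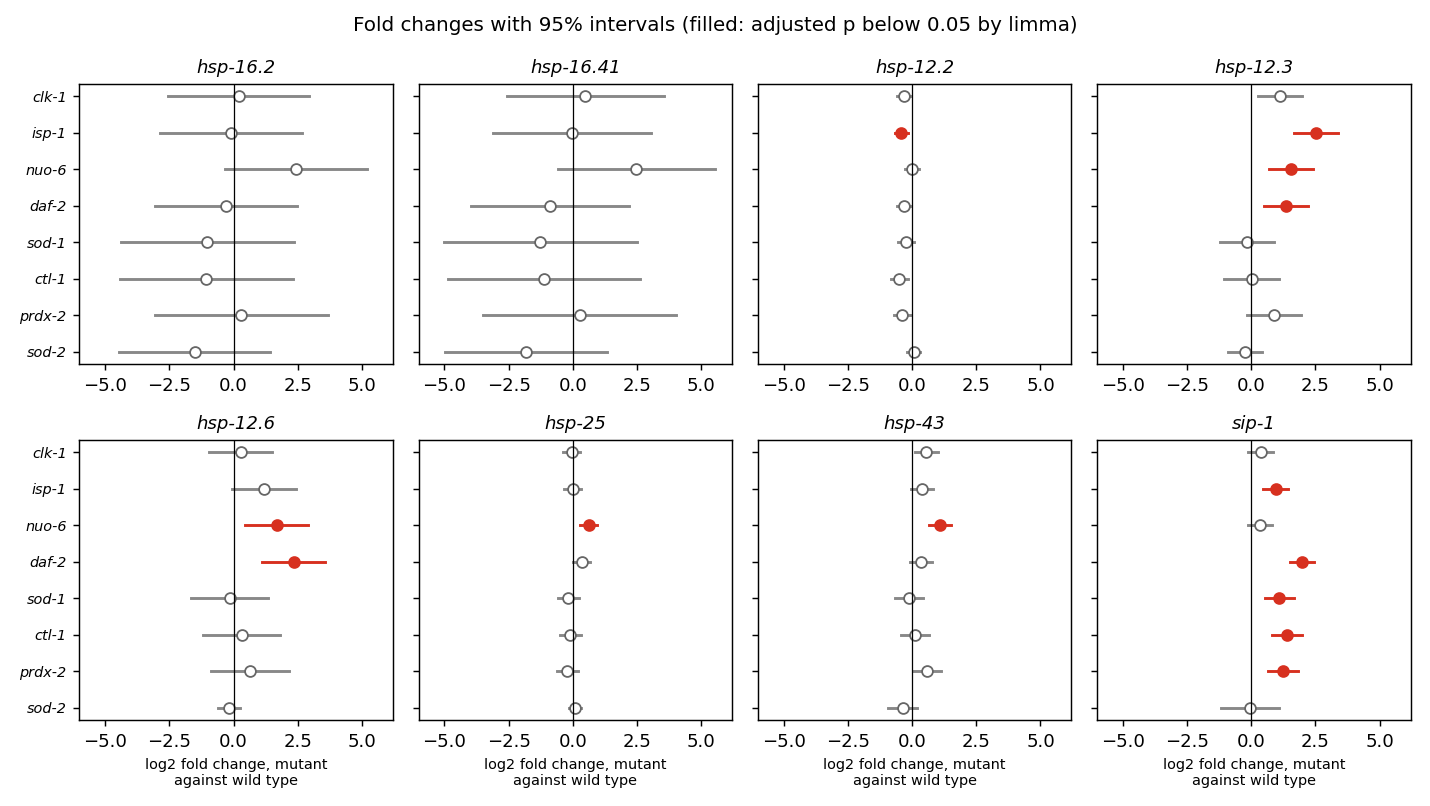
Log2 fold change of each gene in each mutant against the wild type of its own experiment (x), with 95% intervals (normal approximation from the SE) as lines. Filled red points passed an adjusted p below 0.05 by limma. The intervals of *hsp-16.2* and *hsp-16.41* are several log2 units wide and none passed, whereas *sip-1* passed in 5 strains and *hsp-12.3* in 3.

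The 4 long-lived mutants of the first experiment were also compared with one another, and 10 of 48 differences passed. *sip-1* was higher in *daf-2* mutants than in *nuo-6* (log2 difference 1.65), *clk-1* (1.62) and *isp-1* mutants (1.03), with limma adjusted p = 1.45e-06, 2.4e-06 and 9.4e-04 and 6 of 6 *daf-2* libraries above all others each time. *hsp-12.6* was higher in *daf-2* than in *clk-1* mutants (2.07, SE 0.63, limma adjusted p = 0.0097). *hsp-12.3* was lower in *daf-2* than in *isp-1* mutants (-1.17, SE 0.44, limma adjusted p = 0.035), a call lost by edgeR (adjusted p = 0.079). Members that passed numbered 2 of 8 between *daf-2* and *nuo-6* (31.7% of all genes passed), 2 of 8 between *daf-2* and *isp-1* (37.8%) and 2 of 8 between *daf-2* and *clk-1* (37.1%). These counts were not tested against the shares over all genes.

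Between the mitochondrial mutants, *hsp-25* was the member whose difference between *nuo-6* and both others passed. It was higher in *nuo-6* than in *isp-1* (0.63, SE 0.17, limma adjusted p = 0.011) and *clk-1* mutants (0.66, SE 0.17, limma adjusted p = 0.0053). *hsp-43* was higher in *nuo-6* than in *isp-1* mutants (0.70, SE 0.22, limma adjusted p = 0.028), did not pass between *nuo-6* and *clk-1* (0.53, SE 0.22, limma adjusted p = 0.091) and was lower in *daf-2* than in *nuo-6* mutants (-0.74, SE 0.22, limma adjusted p = 0.010). *hsp-12.2* was higher in *nuo-6* than in *isp-1* mutants (0.41, SE 0.13, limma adjusted p = 0.032), with 5 of 6 *nuo-6* libraries above every *isp-1* library. Members that passed numbered 3 of 8 between *nuo-6* and *isp-1* (17.2% of all genes passed), 1 of 8 between *nuo-6* and *clk-1* (20.1%) and 0 of 8 between *isp-1* and *clk-1* (3.24%). Without the wild-type and antioxidant mutant libraries in the fit, *hsp-43* between *nuo-6* and *isp-1* (adjusted p = 0.067) and *hsp-12.3* between *daf-2* and *isp-1* (adjusted p = 0.071) no longer passed.

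Of 8 other genes of the family, 6 had a row. Of these, 2 of 6 rose in *isp-1* mutants (11% of all genes did), 2 of 6 in *nuo-6* mutants (22.5%) and 1 of 6 in *daf-2* mutants (17.4%), with none lower in any comparison. F08H9.4 averaged 8.55 ± 13.2 normalized CPM in *daf-2* mutants, 3.94 ± 4.997 in *isp-1* mutants and 3.58 ± 3.72 in *nuo-6* mutants, against 0.208 ± 0.215 in wild-type libraries (SD, n = 6 each). Its log2 fold change was 2.51, 1.963 and 2.03 (limma adjusted p = 0.0052, 0.041 and 0.021). The SD was above the mean in each of these groups. For these other genes of the family no library was left out in turn, so the weight of single libraries is not known. F08H9.3 rose by 1.43 in *isp-1* and 1.75 in *nuo-6* mutants (limma adjusted p = 0.010 and 8.2e-04). The median of the 6 genes was 0.65 in *nuo-6*, 0.11 in *daf-2* and 0.05 in *isp-1* mutants. *hsp-12.1*, *hsp-17*, ZK1128.7 and Y55F3BR.6 did not pass in any of the 8 comparisons.

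Of 6 genes that control the family, 1 was called higher and 1 lower in *nuo-6* mutants (22.5% and 14% of all genes). In *daf-2* mutants 1 of 6 was called higher (17.4%) and 0 lower (16.3%). Among these 6, *hsf-1*, *daf-16*, *ddl-1* and *ddl-2*, the last 2 being partners that hold HSF-1 inactive, did not pass in any of the 8 comparisons. *pqm-1*, a transcription factor that the study describes as co-regulating DAF-16 target genes, rose in *nuo-6* and *daf-2* mutants (both 1.34, limma adjusted p = 2.8e-04 and 3.1e-04). *hsb-1*, an inhibitor of HSF-1, fell in *nuo-6* mutants (-0.26, limma adjusted p = 0.0039). The median of the 6 was between -0.09 and 0.19 in the 8 comparisons. Of 15 measured cytosolic HSP70, HSP90 and partner genes, *chn-1*, a ubiquitin ligase that works with chaperones, rose in *nuo-6* mutants (0.33, limma adjusted p = 0.029) and *sti-1*, which links HSP70 and HSP90, fell in *daf-2* mutants (-0.55, limma adjusted p = 0.048). The others passed in none, and the median of the 15 was between -0.52 and 0.22. These calls were 1 of 15 in each strain, beside 22.5% of all genes called higher in *nuo-6* mutants and 16.3% called lower in *daf-2* mutants.

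As a description over the 39 libraries of the first experiment, which share strains and depth, the genes most like each member by Pearson correlation on the log2 scale were taken. *hsp-16.2* was closest to *hsp-16.41* (0.99), *daf-21*, which encodes HSP90 (0.87), and Y38E10A.22 (0.87). *hsp-25* was closest to *zyx-1*, the zyxin of muscle attachments (0.93), ZK1058.9 (0.91) and the actin gene *act-4* (0.90). *hsp-12.2* was closest to *sca-1*, the calcium pump of muscle (0.83), *pes-7* (0.77) and *mlp-1* (0.76), and *hsp-43* to *fis-2* (0.84), C54G4.7 (0.82) and *mai-1* (0.82). *sip-1* was closest to *lea-1* (0.85), *rog-1* (0.84) and *nspa-5* (0.83), *hsp-12.6* to *cnc-11* (0.88), *nspe-4* (0.85) and *add-2* (0.85), and *hsp-12.3* to C54F6.15 (0.82), Y110A2AL.2 (0.82) and F40G12.5 (0.81).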

How the data were processed

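The authors aligned reads from a stranded mRNA kit to WBcel235 with STAR 2.5.2b, counted them per gene with the Ensembl build 89 annotation and normalized them with edgeR 3.20.1. Both main tables hold a signal computed by the authors, TMM-normalized CPM of the genes they kept (their rule for keeping a gene is not given in the sources used here). Of all values, 99.96% to 100% were whole multiples of 1 read (tolerance 0.05), so reads were recovered. An earlier deposited table holds the raw count of reads for the 12 libraries of the *sod-2* experiment, although a CPM unit had been assumed. Positions come from Ensembl release 115 of the same assembly.

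Tests of each strain against the wild type of the same table used limma 3.58.1 (R 4.3.3) with an intensity trend, two-sided, after adding 0.5 to each value and taking log2. All groups of a table shared the fit and p-values were adjusted by Benjamini-Hochberg over all genes and called below 0.05. Alternatives were a pseudocount of 0.1, a mean of at least 1, edgeR 4.0.16 with TMM or RLE factors on the recovered reads, the mutant and wild type alone, a replicate block and each library left out. Exact permutation tests used SciPy 1.17.1. The fit was tested on simulated counts. All genes of the family with a row are named, other listed genes where they passed or bear on a result, and 3 genes most like each member. The members and lists were chosen with earlier results of these data known. GEO's labels call the libraries separate samples and the methods biological replicates.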

Additional observations from a re-analysis of the deposited data

Results flagged for a closer look

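Within groups of 6 libraries, 15 of 56 combinations of gene and group had 1 library far from the other 5 by Dixon's test. Its rate of about 1 of 20 by chance holds for normally distributed values. The test was run on values without a log, which are skewed, and *hsp-16.2* and *hsp-16.41* moved together. The count of 15 can therefore not be set against that rate. *hsp-16.2* stood at 689.2 normalized CPM in *clk-1* replicate 2 (next highest 51.6), at 187.6 in *isp-1* replicate 2 (36.1), at 993.0 in *daf-2* replicate 4 (347) and at 887.7 in *sod-2* replicate 1 (12.14). *hsp-16.41* stood at 657.5 in *clk-1* replicate 2 (next highest 78.7), at 182.4 in *isp-1* replicate 2 (38.3) and at 1091 in *sod-2* replicate 1 (8.38). In the same libraries *hsp-43* stood at 156.6 in *clk-1* replicate 2 (next highest 105) and at 140.7 in *sod-2* replicate 1 (66.1).

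*hsp-12.3* stood at 38.9 in *isp-1* replicate 2 (next highest 11.9) and at 16.09 in *nuo-6* replicate 2 (5.09). *hsp-12.6* stood at 10.4 in *nuo-6* replicate 2 (next highest 2.67) and at 34.2 in *daf-2* replicate 6 (7.95). Over the 7 groups of 6 libraries, *hsp-12.3* and *hsp-12.6* had a Pearson r of -0.28 to 0.83 and a rho of -0.09 to 0.83. Of these, 0 of 7 passed the exact permutation test after adjustment. *hsp-25* stood at 444.7 in *nuo-6* replicate 3 (next highest 239). *hsp-12.2* was low in *nuo-6* replicate 1 at 47.7, where the next lowest had 62.1. *nuo-6* replicate 2 was thus high for both *hsp-12* genes on chromosome IV and lowest for *hsp-25* and *hsp-43*. Its summed yolk level was 9006, against 59658 to 97075 in the other 5 *nuo-6* libraries, and its oocyte marker sum was 2129, against 3798 to 6598. In another strain, *isp-1* replicate 2 was high for *hsp-16.2*, *hsp-16.41* and *hsp-12.3*. The cause of these single libraries was not tested.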

How the results depend on the processing

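Of 272 alternative values for the 23 calls, 246 kept the direction and the call, 26 lost the call and 0 changed direction. With the mutant and wild type fitted alone, calls numbered 2 in *clk-1*, 5 in *isp-1*, 0 in *sod-1* and 0 in the libraries labelled *ctl-1*, against 0, 3, 1 and 1 in the joint fit. In *sod-1* worms edgeR gave 0 calls with TMM and 0 with RLE factors. Leaving out each library gave 0 to 1 calls in *sod-1*, 0 to 2 in the libraries labelled *ctl-1*, 2 to 4 in *daf-2*, 2 to 3 in *isp-1* and 3 to 4 in *nuo-6* worms. In *daf-2* worms *hsp-12.2* (-0.32 in the joint fit) passed without wild-type replicate 7 (-0.40), *daf-2* replicate 1 (-0.37) or *daf-2* replicate 4 (-0.39), and so did *hsp-25* without wild-type replicate 10 (0.44, against 0.35). In the libraries labelled *ctl-1*, *hsp-12.2* passed without wild-type replicate 7 (-0.57).

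Whether replicate numbers pair the samples was not settled. Same-numbered *sod-2* and wild-type libraries had correlations of -0.24 to 0.75, with 4 of 6 over 0.1, and the long-lived mutants had 14 of 36 over 0.1. Libraries with different numbers were not compared in this way. With a replicate block the *sod-2* comparison called 0 of 8 members, and over all genes 453 higher and 152 lower, against 341 and 101 without it. Between the long-lived mutants the fit with a replicate block gave 8 calls, against 10. It lost *hsp-43* between *daf-2* and *nuo-6* (adjusted p = 0.066) and between *nuo-6* and *isp-1* (adjusted p = 0.11) and *hsp-12.3* between *daf-2* and *isp-1* (adjusted p = 0.066), and added *sip-1* between *nuo-6* and *isp-1* (-0.62, adjusted p = 0.038), which also passed with these 4 strains alone (adjusted p = 0.033). edgeR gave 12. Over all genes, edgeR called 150 lower in *sod-1* worms, against 275 by limma. Low reads limit *hsp-12.6* and the spread between libraries limits the *hsp-16* pair.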
